A study of Mus musculus with 12 samples.

Results

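M400008025 and M400007654 are 2 oligonucleotide probes of 60 bases, out of 35856 on a mouse expression array, that gave the largest rises of the ratio of spleen sample to reference RNA in 564 Igi mice against C57BL/6 mice at 4 months. They were chosen by that rise in the log2 ratio and for stretches of sequence that they share with probes for antibody light-chain variable (V) regions. Their differences between the strains are therefore given as descriptions, with no test. The array lists a sequence but no gene and no genome position for either oligo, and both are called by their identifiers here.

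The data came from 12 arrays of female spleen RNA. The 564 Igi groups held 3 arrays at 4 months, 3 at 8 months and 4 at 12 months of age, and the C57BL/6 group held 2 arrays at 4 months. 564 Igi is a knock-in strain on the C57BL/6 background in which the assembled heavy-chain and light-chain genes of 1 antibody were placed in the mouse's own antibody loci, so that most B cells start from the same pair of chains. The sample labels give the genotype as 564+/-, while the accompanying text speaks of 564+/+ animals, homozygous at both loci. Part of that homozygous colony drank water with ampicillin, metronidazole, neomycin and vancomycin, and the labels do not say whether the sampled mice did. The C57BL/6 mice are labelled as wild type, without a knock-in allele, and were bred at the same institute. No C57BL/6 array was made at 8 or 12 months, so the older 564 Igi groups were set against 4-month controls, and age and strain cannot be told apart there. Nothing states that each RNA came from a separate animal, and the spread between arrays may in part be technical.

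On each array Cy3 marked the spleen sample and Cy5 a universal reference RNA, without dye swap. The level used below is the log2 ratio of sample to reference on 1 array, so a difference of 1 is a 2-fold change. Of the oligos, 26279 passed a filter on dim spots and were tested. The Cy3 channel was well above background for 69.4% to 75.9% of the oligos on 11 arrays and for 91.2% on 564 Igi 4 months replicate 1. Slide 1 carried only 564 Igi arrays, and slides 2 and 3 carried 1 C57BL/6 array each. Markers of spleen cell types could not be read from oligos without gene names.

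Each B cell builds its light chain by joining a V segment to a short J segment, and most mouse light chains are of the kappa type. A V region begins with a leader peptide that is cut off, and then alternates conserved framework stretches with 3 hypervariable loops that contact antigen. Framework 2 opens with a conserved tryptophan after the first loop, and many V segments differ there by only a few bases, so that 1 RNA can bind several oligos. In the RefSeq annotation of GRCm38.p6, 162 Igkv entries, 102 of them V segments and 60 pseudogenes, lie on chromosome 6 between positions 67555636 and 70704177. Which of them, if any, matches either oligo was not analysed here.

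The sequences of both oligos, printed 5′ to 3′ in the sense strand as the array lists them, show how each reads as part of a V region. In M400008025 the capitals mark the 6 codons of the framework 2 pattern, at bases 23 to 40.
M400008025: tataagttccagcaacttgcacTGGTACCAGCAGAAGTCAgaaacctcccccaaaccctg
Translated from its second base, M400008025 gave 19 codons without a stop, and the framework 2 pattern lay in that frame. Its first forward frame was also open, forward frame 3 had 1 stop, and neither held a light-chain pattern. On the reverse strand no frame held a pattern. The pattern is a tryptophan followed by the residues that V segments keep at the start of framework 2, and it matched 7 oligos of the array in all.

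M400007654 held none of the searched light-chain patterns in any of its 6 frames. Read from its second base, it also gave 19 codons without a stop, of which 12 coded for hydrophobic residues. Forward frame 1 and reverse frame 1 were open too, forward frame 3 had 1 stop, and reverse frames 2 and 3 had 2 stops each. The capitals below mark the runs it shares with 2 other oligos, shown because they place it against V-region sequence.
M400007654: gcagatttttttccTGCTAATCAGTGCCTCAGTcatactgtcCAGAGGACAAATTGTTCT
M400007002: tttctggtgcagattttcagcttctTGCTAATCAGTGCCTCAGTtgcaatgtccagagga
M400006575: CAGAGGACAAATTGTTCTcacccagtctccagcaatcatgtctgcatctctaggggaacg
M400007002 shared a run of 19 bases, at bases 15 to 33 of M400007654. M400006575 began with the last 18 bases of M400007654, at bases 43 to 60, and its own second frame held the pattern of the start of framework 1, the first stretch of the mature V region. That frame runs on in phase from the second frame of M400007654. The member's hydrophobic frame therefore runs into a framework 1 start, whose first codons lie within the shared 18 bases. The leader peptide of a V segment is hydrophobic and lies just before framework 1. M400008025 and M400007654 shared no more than 5 bases in a row with each other, and their best alignment without gaps was 36.7% identical.

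M400008025 was closest in sequence to a group of 6 oligos, called its family here. These have at least 80% identity to it over at least 30 aligned bases, and the capitals mark the bases identical to M400008025 in that alignment.
M400006358: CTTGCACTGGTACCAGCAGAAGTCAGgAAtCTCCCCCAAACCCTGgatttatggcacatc
M400006576: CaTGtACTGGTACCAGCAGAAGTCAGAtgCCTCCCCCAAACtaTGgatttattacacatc
M400006952: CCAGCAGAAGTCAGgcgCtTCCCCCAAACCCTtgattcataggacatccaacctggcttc
M400008572: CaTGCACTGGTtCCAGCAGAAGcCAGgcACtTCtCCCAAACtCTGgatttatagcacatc
M400006035: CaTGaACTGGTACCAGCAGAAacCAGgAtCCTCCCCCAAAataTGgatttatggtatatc
M400008130: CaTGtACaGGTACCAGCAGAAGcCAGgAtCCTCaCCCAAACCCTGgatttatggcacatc
The nearest, M400006358, was identical at 43 of 45 aligned bases (95.6%) and shared a run of 26 bases. Counted from the 5′ end of M400008025, with its base first, the differences were A42G and C45T. The other 5 were identical at 80% to 86.7% of the aligned bases, and M400008130 at 84.4% of 45. M400005376 shared a run of 15 bases but was identical at only 52.9% of 51 aligned bases. No oligo shared a run of at least 15 bases with M400008025 on the opposite strand, and 1 did so with M400007654. This was M400017807, with a run of 15 bases at bases 11 to 25, and it was too dim to be tested (well above background in Cy3 on 1 array).

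M400008025 was high on all 10 arrays of 564 Igi spleen. Its log2 ratio to the reference was 2.11 and 2.90 on the C57BL/6 arrays. In 564 Igi it was 5.20, 5.51 and 5.94 at 4 months, 5.93, 5.22 and 6.37 at 8 months, and 5.57, 6.11, 6.17 and 6.53 at 12 months. The lowest 564 Igi array thus lay above the higher C57BL/6 array, while the 3 ages overlapped. All 10 arrays of 564 Igi lay above both C57BL/6 arrays for 4.4% of the 25999 tested oligos measured on every array. For this oligo that order is part of how it was chosen.

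The group means of M400008025 were 2.50 ± 0.56 (SD, n = 2) in C57BL/6 and 5.55 ± 0.37 (n = 3), 5.84 ± 0.58 (n = 3) and 6.10 ± 0.40 (n = 4) in 564 Igi at 4, 8 and 12 months. The difference from C57BL/6 was 3.05 at 4 months (8.26-fold), 3.34 at 8 months (10.1-fold) and 3.59 at 12 months (12.1-fold). The 3 comparisons share their C57BL/6 arrays. In these whole-spleen RNA samples, more cells with a transcript and more transcript per cell cannot be told apart.

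M400007654 followed the same order of groups. Its log2 ratio was 1.78 and 2.42 in C57BL/6. In 564 Igi it was 5.03, 4.91 and 5.43 at 4 months, 5.85, 5.34 and 5.49 at 8 months, and 5.24, 5.97, 5.51 and 6.20 at 12 months. The strains did not overlap, and the ages did. For this oligo too the order of the strains is part of how it was chosen, and 4.4% of the 25999 tested oligos measured on every array had it. The means were 2.10 ± 0.46 (SD, n = 2) in C57BL/6, then 5.12 ± 0.27 (n = 3), 5.56 ± 0.26 (n = 3) and 5.73 ± 0.44 (n = 4) in 564 Igi by age. The difference from C57BL/6 was 3.02 (8.14-fold), 3.46 (11-fold) and 3.63 (12.4-fold) at 4, 8 and 12 months. These folds rest on C57BL/6 ratios whose Cy5 signal was not well above background, and with the scanner's processed ratios the differences were 0.70, 0.91 and 0.71.

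In order of rise among the 26279 tested oligos, M400008025 stood first and M400007654 second at 4 months, and the order was turned at 8 and 12 months. Just outside the pair at 4 months stood M300016637 (3.02, SE 1.17), M400006575 (2.58, SE 0.38) and M200000089 (2.45, SE 0.73). M300016637 differed from C57BL/6 by only -0.05 at 8 months and 0.58 at 12 months. M200000089 differed by 3.26 at 8 months and 0.11 at 12 months. Of these 3, M400006575, which overlaps M400007654 in sequence, kept a difference at all ages (2.79 and 2.78 at 8 and 12 months). The ranks depended on the scale. With Cy3 alone, M400008025 ranked 9, 8 and 9 at 4, 8 and 12 months and M400007654 ranked 4, 4 and 1. With the scanner's own processed ratios, M400008025 ranked 4, 5 and 7 and M400007654 only 895, 633 and 1106.

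Within slides, on which each group present held 1 or 2 arrays, both oligos were higher in 564 Igi wherever the strains shared a slide. At 4 months only slide 2 held both strains, with 1 array of each. M400008025 differed by 3.83 at 4 months on slide 2, by 3.12 and 3.46 at 8 months on slides 2 and 3, and by 4.01 and 3.45 at 12 months. M400007654 differed by 3.66 at 4 months, by 3.56 and 3.06 at 8 months, and by 4.20 and 3.43 at 12 months on the same slides.

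The Cy3 channel, that of the spleen sample, was many times brighter in 564 Igi. Before any correction the mean Cy3 signal of M400008025 was 467 and 700 in C57BL/6. It was 8272, 7084 and 9483 in 564 Igi at 4 months, 14191, 4702 and 13520 at 8 months, and 10300, 11585, 14897 and 11451 at 12 months. The weakest 564 Igi spot, replicate 2 at 8 months, was thus brighter than both C57BL/6 spots. The local Cy3 background around the spots of both oligos lay near 30 on every array, from 24 to 32.5.

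The Cy3 signal of M400007654 was 224 and 277 in C57BL/6. In 564 Igi it was 5048, 3651 and 4707 at 4 months, 8815, 3287 and 4858 at 8 months, and 6271, 7634, 8369 and 11047 at 12 months. Both oligos were well above background in Cy3 on all 12 arrays, so in C57BL/6 spleen they gave a low signal and not an undetected one. No spot of either was saturated or flagged as uneven.

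With the Cy3 channel alone, quantile normalized, the difference from C57BL/6 was larger than in the ratio. M400008025 was higher by 3.70, 3.90 and 4.49 at 4, 8 and 12 months (13-, 14.9- and 22.5-fold). M400007654 was higher by 3.93, 4.17 and 5.07 (15.2-, 18- and 33.6-fold).

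The Cy5 channel, which held the same kind of reference RNA on every array, was dim for both oligos but was not level between the strains. The uncorrected Cy5 signal of M400008025 was 95.9 and 122 in C57BL/6. In 564 Igi it was 171, 108 and 160 at 4 months, 199, 131 and 212 at 8 months, and 197, 206, 371 and 253 at 12 months. Only replicate 2 at 4 months fell within the C57BL/6 range. The local Cy5 background of these spots was 33 to 45.

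The Cy5 signal of M400007654 was 55.2 and 59.1 in C57BL/6, over local backgrounds of 40 and 45.5, and was not well above background on either array. In 564 Igi it was 114, 80.5 and 103 at 4 months, 120, 80 and 137 at 8 months, and 149, 136, 318 and 323 at 12 months, and it was well above background on all 10 arrays. The C57BL/6 log2 ratio of this oligo therefore rests on a reference signal close to background. In Cy5 M400008025 was well above background on all 12 arrays.

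On the normalized scale the Cy5 channel alone was higher in 564 Igi by 0.50, 0.69 and 1.00 for M400008025 and by 0.71, 0.82 and 1.57 for M400007654 at 4, 8 and 12 months. All 10 arrays of 564 Igi lay above both C57BL/6 arrays in Cy5 for each, at 7.15 to 8.22 against 6.85 and 7.00 for M400008025, and at 6.52 to 8.03 against 6.15 and 6.14 for M400007654. That order held for 1.93% of the 25999 tested oligos measured on every array. In the ratio of sample to reference, a higher Cy5 signal makes the difference between the strains smaller, whatever the source of that signal. After subtraction of the local background, Cy5 amounted to 13.2% and 11.5% of Cy3 for M400008025 in C57BL/6 and to 0.983% to 2.22% in 564 Igi. For M400007654 it was 7.7% and 5.48% in C57BL/6 and 0.911% to 3.28% in 564 Igi. What part of the Cy5 signal came from the reference RNA was not tested.

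The scanner's processing, which differs in background correction, offset and dye normalization together, moved the value of M400007654 more than that of M400008025. In the scanner's processed ratios, M400007654 stood at 5.32 and 5.41 in C57BL/6 and at 5.70 to 6.49 in 564 Igi, and its difference at 4 months was 0.70 in place of 3.02. Changed alone, an offset of 16 in place of 50 gave 2.69 and median centring in place of loess gave 3.22. The processed Cy5 signals behind the C57BL/6 values were 15.2 and 20.1, with no offset added. M400008025 stood at 3.12 and 3.65 in C57BL/6 and at 5.59 to 6.78 in 564 Igi on that scale, and its difference at 4 months was 2.63. The strains did not overlap for either oligo in these ratios, and the share of all oligos in that order on this scale was not counted.

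The comparison of ages asks whether the oligos went on changing as 564 Igi mice grew older. It did not choose the members, although the 4-month arrays did take part in that choice. Neither oligo passed the threshold (limma, adjusted p under 0.05) in any of the 3 comparisons. Among all tested oligos, 0% passed between 8 and 4 months, 0.00381% (1 oligo) between 12 and 4 months and 0% between 12 and 8 months, while 825, 2009 and 1108 had an unadjusted p under 0.05.

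For M400008025, 12 minus 4 months was 0.55 (SE 0.30, 95% interval -0.11 to 1.20, limma adjusted p = 0.686). Its 8 minus 4 months value was 0.29 (SE 0.32, interval -0.41 to 0.99, limma adjusted p = 1), and 12 minus 8 months was 0.26 (SE 0.30, interval -0.40 to 0.91, limma adjusted p = 0.99). For M400007654, 12 minus 4 months was 0.61 (SE 0.24, interval 0.08 to 1.13), with an unadjusted limma p of 0.0269 and an adjusted p of 0.616. Its 8 minus 4 months value was 0.43 (SE 0.26, interval -0.13 to 0.99, limma adjusted p = 1), and 12 minus 8 months was 0.17 (SE 0.24, interval -0.35 to 0.70, limma adjusted p = 0.99). A moderated F test over the 3 ages gave an adjusted p of 0.929 for each oligo. The intervals leave room for changes of up to 1.20 and 1.13 between 4 and 12 months.

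Within slides, with 1 or 2 arrays a group, the age differences ranged from -0.72 to 0.89. For M400008025, 8 minus 4 months was 0.57 on slide 1 and -0.72 on slide 2, 12 minus 4 months was 0.22 and 0.17, and 12 minus 8 months was -0.35, 0.89 and -0.01 on slides 1, 2 and 3. For M400007654 the same values were 0.88 and -0.10, 0.27 and 0.54, and -0.61, 0.64 and 0.37. Only 12 minus 4 months was above 0 on each slide that held both ages, for both oligos.

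Among the 10 arrays of 564 Igi, the pair tended to be high or low on the same arrays. The correlation of their log2 ratios was r = 0.765 (permutation p = 0.00912) and rho = 0.794 (permutation p = 0.00898), both two-sided. It was the only relation between oligos given a test, and its p-values carry no adjustment for the other settings below or for the similarity ranking of oligos further on. Without the 2 arrays farthest from the median of M400008025, which were 564 Igi 4 months replicate 1 and 8 months replicate 2, r was again 0.765 (exact permutation p = 0.0267, 8 arrays) and rho was 0.714 (exact permutation p = 0.0576). As deviations from the mean of each slide, r was 0.742 (permutation p = 0.00788). That permutation moved values freely between slides, so its p does not allow for the slide means taken out. The oligos of 1 array share their RNA, labelling and normalization. The 10 arrays pool 3 ages, and the group means of both oligos rose from 4 to 8 to 12 months. Values were permuted freely between ages, so r and its p do not set apart a shared order of ages. No other pair of oligos was correlated over these 10 arrays. With the scanner's processed ratios r was 0.352 (permutation p = 0.318), with a background offset of 16 it was 0.612 (p = 0.0628), and with median centring in place of loess 0.464 (p = 0.135).

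How many of the oligos that resemble M400008025 were also higher in 564 Igi depended on the measure of likeness. At 4 months, 4 of the 6 oligos with at least 80% identity passed the threshold and were higher, with 0 lower and a median of 2.11. Of the 4 oligos with a shared run of at least 15 bases, 2 were higher and 1 was lower (median 2.08). Of the 16 tested oligos that share 12 or more bases in a row, 3 were higher and 1 was lower, and the median was 0.03. The nearest in sequence, M400006358, was higher by 2.09 (SE 0.31, 4.25-fold, limma adjusted p = 0.0109). M400006576 was higher by 2.43 (SE 0.31, 5.38-fold, limma adjusted p = 0.00277), M400006952 by 2.31 (SE 0.28, 4.95-fold, limma adjusted p = 0.00195) and M400008572 by 2.13 (SE 0.38, 4.39-fold, limma adjusted p = 0.0352). Among all tested oligos, 0.0685% were higher and 0.339% lower at this age. M400006035 differed by 2.08 and did not pass (SE 0.49, limma adjusted p = 0.134). These oligos may bind the same RNA as M400008025, which was not tested, so their values are no separate evidence on it.

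The family was not uniform. M400008130 shared 38 of 45 aligned bases with M400008025, and its log2 ratio was 2.47 and 2.72 in C57BL/6 and 0.40 to 1.63 in 564 Igi. Its difference was -1.77 at 4 months (SE 0.37, limma adjusted p = 0.0857), -1.64 at 8 months (limma adjusted p = 0.0923) and -1.49 at 12 months (limma adjusted p = 0.0839), none past the threshold. M400005376, with a shared run of 15 bases only, fell by 0.66 at 4 months (limma adjusted p = 0.00875), and it was well above background in Cy3 on only 3 arrays.

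At 8 and 12 months all 5 oligos of the family other than M400008130 passed the threshold, against 0.129% and 0.32% of all tested oligos called higher and 0.495% and 0.586% called lower at these ages. M400006358 was higher by 2.38 and 2.37, M400006576 by 2.65 and 2.78, and M400006952 by 2.70 and 2.82 at these ages. M400008572 was higher by 2.33 and 2.61. M400006035 was higher by 2.60 (limma adjusted p = 0.0396) and 3.03 (limma adjusted p = 0.0079), so that it crossed the threshold at the later ages with an adjusted p of 0.134 at 4 months, a difference between ages that was itself not called.

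Both oligos that overlap M400007654 were higher in 564 Igi. M400007002 stood at 2.54 and 3.20 in C57BL/6 and at 4.86 to 6.69 in 564 Igi, and it was higher at 4 months by 2.29 (SE 0.40, 4.9-fold, limma adjusted p = 0.0298). M400006575, the framework 1 oligo, stood at 2.70 and 3.51 in C57BL/6 and at 5.36 to 6.76 in 564 Igi, and was higher by 2.58 (SE 0.38, 5.99-fold, limma adjusted p = 0.00978). At 8 months the differences were 2.75 and 2.79, and at 12 months 3.04 and 2.78 (limma adjusted p = 0.00157 and 0.0021). Among all tested oligos, 0.0685%, 0.129% and 0.32% were called higher and 0.339%, 0.495% and 0.586% lower at 4, 8 and 12 months. Oligos that share such runs may bind the same RNA as M400007654, so their values are no separate evidence on it.

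The calls on these oligos were less stable than their direction. All 7 were higher under every setting tried, by 1.12 to 4.02 at 4 months. With spots of uneven background kept as scanned, 0 of the 7 passed at 4 and 8 months (lowest difference 1.12 and 1.97) and 2 passed at 12 months. With the scanner's processed ratios 1, 1 and 4 passed at the 3 ages. At 4 months 2 of the 7 passed without C57BL/6 4 months replicate 1, and 2 without 564 Igi 4 months replicate 3, where 6 passed with all arrays. At 8 months 3 of the 7 passed without C57BL/6 4 months replicate 1, where 7 passed with all arrays.

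The oligos whose log2 ratio moved most like that of M400008025 over the 12 arrays, of 25998 compared, were M400006952 (r = 0.997), M400006818 (0.992), M400006576 (0.988) and M400005733 (0.982). For M400007654 they were M400005733 (0.988), M400006818 (0.985), M400006952 (0.985) and M400006358 (0.983). These values follow mostly from the gap between the strains, which set the members apart in the first place, and points of 1 array share its RNA and normalization. Each member stood close behind the first 4 for the other, at rank 5 for M400008025 and rank 6 for M400007654. M400006818 and M400005733 share no run of 15 bases with either member. M400006818 had a log2 ratio of 3.64 in C57BL/6 and 5.68, 5.90 and 6.19 in 564 Igi at 4, 8 and 12 months, and M400005733 had 2.98 against 5.26, 5.48 and 5.62.

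Against the whole set of light-chain pattern oligos, the rise of M400008025 went the other way from most. The patterns, written from conserved stretches of V and J segments, matched 38 oligos, of which 37 were tested. On the reverse strand, a measure of chance matches, the patterns matched 1 oligo. That count cannot show whether V regions of chains other than light chains match the patterns too, and this was not tested. Without M400008025, 4 of 36 were higher at 4 months, 21 were lower and 11 were not called, with a median difference of -1.90, against 0.01 for all tested oligos. At 8 and 12 months 5 were higher and 22 lower, with medians of -1.89 and -1.81. The filter kept oligos well above background in Cy3 on all arrays of at least 1 group. An oligo bright only in C57BL/6 could thus enter through that group and count as lower. Some of the lower oligos were well above background on only 2 or 3 arrays. With a filter on both channels on all arrays, 8 were lower at each age. Among all tested oligos, 0.0685% were called higher and 0.339% lower at 4 months. The shares higher and lower were 0.129% and 0.495% at 8 months, and 0.32% and 0.586% at 12 months. Between the ages of 564 Igi, 0 of the 36 were called by limma, and the median difference lay between 0.01 and 0.06. Without C57BL/6 4 months replicate 1, the count of higher oligos was 1, 2 and 3 at 4, 8 and 12 months. It was 1 at 4 months without 564 Igi 4 months replicate 3, and 3 at 8 months without 564 Igi 8 months replicate 1 or replicate 3.

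The higher oligos of the list were all of the framework 1 and framework 2 patterns at 4 months. Of the 6 framework 2 oligos besides M400008025, 3 were higher at 4 months (M400006358, M400006576 and M400008572) and 0 lower. At 8 and 12 months M400006035 was higher as well, and M400010433 fell by 0.87 and 0.85 with a Cy3 signal well above background on only 2 arrays. M400006106 differed by -0.02 at 4 months and was not called at any age. Of the 8 oligos with a framework 1 start, only M400006575, which overlaps M400007654, was higher, and 6 were lower, at a list median of -2.58. The 15 tested oligos with the framework 3 end pattern held 10 that were lower and 0 higher, and 4 of the 6 J segment oligos were lower. Some of these lower oligos were well above background in Cy3 on only 2 or 3 arrays. The filter could admit such oligos through the C57BL/6 arrays alone, so these counts depend on it. Over all tested oligos the shares ran from 0.0685% to 0.32% higher and from 0.339% to 0.586% lower across the 3 ages. The list was chosen with results of these arrays known, and its counts are no independent evidence of a direction.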

How the data were processed

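Intensity columns, as deposited by the authors, hold the mean brightness and local background of each spot per the file headers, quantified with Agilent Feature Extraction 11.5.1.1. The deposited log ratio is the log10 of Cy5 (reference) over Cy3 (sample), after lowess dye normalization per the file headers, and its sign was turned here. The authors' own tests are not given in the sources used here.

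The work used limma 3.58.1 (R 4.3.3). Normexp, offset 50, removed the background. Spots of uneven background were given the array median for this step and then left out. Loess, in which control spots had weight 0, normalized each array. Of 35856 oligos, 26290 were well above background in Cy3 on all arrays of at least 1 group, and 26279 had a value in every group. All 12 arrays entered 1 limma fit with group means as coefficients (residual degrees of freedom 8, prior 3.71) and Benjamini-Hochberg adjustment over all tested oligos. Fits were tested on simulated data. Sequences were compared and translated with Biopython 1.88, and permutation tests used SciPy 1.17.1 with 100000 resamples.

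Oligos named are the 2 members, those sharing a run of at least 15 bases or, added later, at least 80% identity over at least 30 bases, the 4 most similar in pattern per member, the 3 next in rise, and M400010433 and M400006106, chosen after their values were seen. Members, lists and tests were chosen with earlier results of these data known. The planned cell type marker lists were not done, since oligos were not paired with genes here. The number of arrays limits the precision of every value. Replicate numbers were not used to pair the arrays in the main fit. Deviations of same-numbered arrays from their group means correlated at r = -0.23 to 0.29. In groups this small, deviations from the mean are tied to each other, so these values cannot exclude pairing.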

Additional observations from a re-analysis of the deposited data

How the results depend on the processing

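Both oligos were higher in 564 Igi at every age under every setting that gave a value. At 4 months the difference of M400008025 was 2.43 with uneven-background spots kept and 3.70 with Cy3 alone, and that of M400007654 was 2.22, 3.93 and, with the scanner's processed ratios, 0.70. At 8 months M400007654 gave 2.78 with uneven spots kept, 0.91 with processed ratios, 3.10 with an offset of 16 and 4.17 with Cy3 alone. At 12 months M400008025 gave 2.94 with processed ratios and 4.49 with Cy3 alone, and M400007654 gave 0.71 and 5.07, and 3.07 with an offset of 16. A filter on both channels drops M400007654, whose Cy5 signal was not well above background in C57BL/6. Leaving out 1 array gave 2.65 to 3.44, 2.94 to 3.73 and 3.19 to 3.99 for M400008025 at 4, 8 and 12 months, and 2.7 to 3.35, 3.13 to 3.78 and 3.31 to 3.95 for M400007654.

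The difference of 12 minus 8 months changed sign, without a call, to -0.02 for M400008025 with median centring, and for M400007654 to -0.20 with processed ratios, -0.03 with an offset of 16 and -0.12 with median centring; the cause was not tested. Leaving out 1 array gave -0.05 (without 564 Igi 8 months replicate 2) to 0.52 and 0.02 to 0.34. It gave 0.03 to 0.6 and 0.29 to 0.59 for 8 minus 4 months, 0.38 to 0.74 and 0.45 to 0.77 for 12 minus 4 months, and adjusted p-values of 0.72 to 0.999 and 0.714 to 0.999 in limma's F test. The correlation between the oligos fell to 0.352, 0.612 and 0.464 with processed ratios, an offset of 16 and median centring. With the replicate number as a block, the 4-month difference was 2.86 for M400008025 and 3.00 for M400007654, and no age comparison of either was called, although M400008572 lost its call at 4 and 8 months and M400008130 passed at 4 and 12 months. A shared run of at least 12 bases in place of 15 raised the oligos found from 4 to 18 for M400008025 and from 2 to 8 for M400007654, and one of at least 20 lowered them to 2 and 0. At least 80% identity found 6 and 0. Of the light-chain list without M400008025, called higher were 4, 5 and 5 oligos at 4, 8 and 12 months, and 0, 0 and 2 with uneven spots kept, 1, 1 and 3 with processed ratios, 3 at 8 months with only the compared groups in the fit, and 1 to 4, 2 to 6 and 3 to 6 with 1 array left out. Called lower were 21, 22 and 22, and 8 at each age with the filter on both channels, which tests fewer oligos, and 21 to 22 with 1 array left out. These list counts were added after seeing the data. Calls over all tested oligos ranged from 54 to 206, 69 to 572 and 110 to 311 across settings. The number of C57BL/6 arrays and the dim Cy5 signal limit all differences between the strains.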

Other observations

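The reference channel moved with the sample channel beyond the 2 oligos. With each channel taken alone at 4 months, 20 tested oligos were higher in Cy3 by at least 2 on the log2 scale, both members among them, with a median of 3.36. Their median Cy5 difference was 1.06, and Cy5 was higher for 18 and lower for 2. For the 89 oligos lower in Cy3 by at least 2, at a median of -2.82, the median Cy5 difference was -0.63, with 85 lower and 4 higher. For 25891 oligos within 1 in Cy3 the median Cy5 difference was -0.02. What moved the Cy5 signal was not tested.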
